A study of Mus musculus with 3 samples.

Results

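The F10 and F1 sublines of the mouse B16 melanoma line were compared gene by gene. A gene entered the comparison when its row carried a gene symbol rather than a spreadsheet date and its RPKM (reads divided by a gene's transcript length and the library's depth) was at least 1 in either library. This gave 10590 genes out of 14293 with a symbol. Of these, 10024 reached 1 RPKM in both libraries, 330 in F10 alone and 236 in F1 alone, and for the last 2 kinds the filter fixes part of the direction. B16 is a pigmented tumour line of C57BL/6J mice. The numbered sublines are known from serial selection for growth in the lung after injection into the blood, and F10 is widely used as a strongly lung-colonising line while F1 comes from an early round. Per the labels, all libraries came from B16 cells of melanoma origin grown in high-glucose medium with 8% serum, used within 10 passages of thawing and harvested before confluence. The labels give no treatment, genotype or second culture for any subline, so each subline is 1 culture and 1 library (F10, F1 and, as context, F0).

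With 1 library a side there is no replicate error, no test and no p-value, and subline, culture and library cannot be told apart. Differences are given as F10 minus F1 on the log2(RPKM + 1) scale, which understates differences of low genes. Where fragments could be estimated from the table, the RPKM ratio has a 95% exact counting interval, which covers counting error only. A level of 1 RPKM over 1 kb stood for about 6.23 fragments in F1 and 5.30 in F10. At the median gene of the comparison this came to 143 and 120 fragments. The melanoma label was checked against melanocyte markers, of which 8 of 8 reached 1 RPKM in both libraries. Tyrp1, an enzyme of melanin synthesis, read 2864 RPKM in F1 and 3030 in F10, and Pmel, the fibril protein of melanosomes, read 2183 and 1669.

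Of the 10590 genes, 221 (2.09%) read at least 2-fold higher in F10 and 205 (1.94%) at least 2-fold lower, 426 in all (4.02%). The median difference over all genes was -0.01. Among genes at 1 RPKM or more in both libraries the counts were 132 and 141, which are 1.32% and 1.41% of 10024. The upper end of the range leaned to F1: of 578 genes whose higher value was from 100 to under 1000 RPKM, 1 read at least 2-fold higher in F10 and 16 lower, and of the 36 genes above that, none and 2. Those 2 were Hmox1, the haem-degrading enzyme haem oxygenase 1, and Hspa5, the main chaperone of the endoplasmic reticulum (ER). GC content moved with the difference. In the highest of 8 GC bins the median was 0.27, with 73 genes higher and 11 lower, and in the lowest it was -0.17, with 9 and 35. Medians after subtraction of GC bin medians are therefore given below for the main lists, and the part of GC content in any single gene was not tested.

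**Figure D1:**
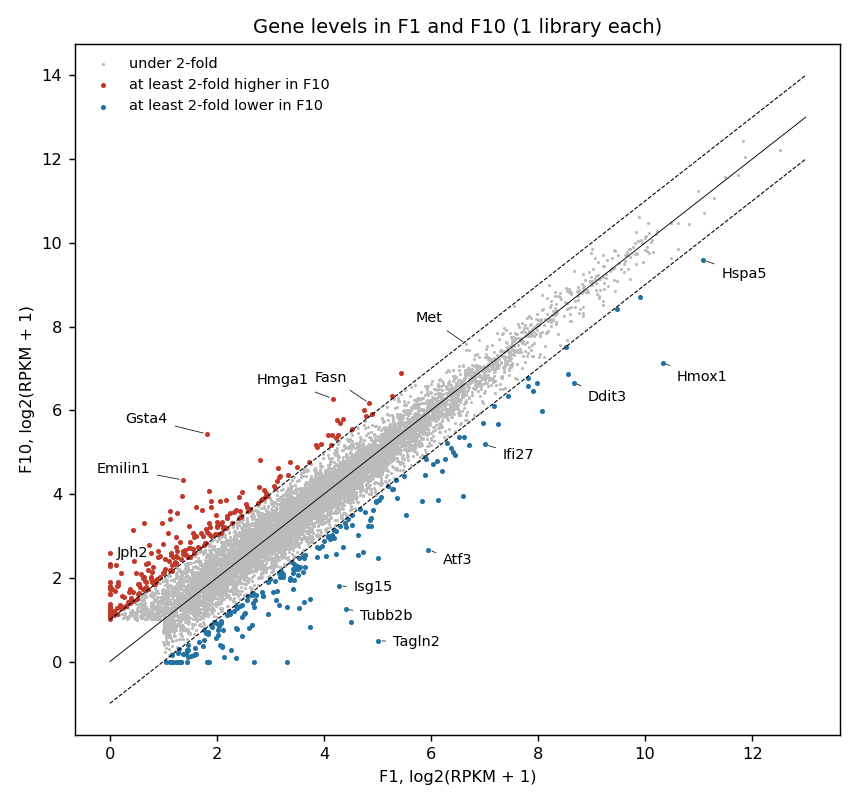
Level of each of the 10590 compared genes in F1 (x axis) and F10 (y axis), both as log2(RPKM + 1), 1 library each. The solid line marks equal levels and the dashed lines 2-fold, red and blue points are the 221 and 205 genes beyond them, and the abundant genes beyond them lie mostly on the F1 side, among them Hmox1, Hspa5 and Ddit3.

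The ER handles the folding of secreted and membrane proteins. When unfolded proteins build up, the sensors ATF6, IRE1 (encoded by Ern1) and PERK (encoded by Eif2ak3) raise chaperone genes and slow translation, and the PERK branch shares its output, the integrated stress response, with kinases that sense amino acid shortage, viral RNA and haem shortage. In F10 the whole chaperone and folding list lay below F1. All 29 compared members read lower, 12 of them at least 2-fold (41.4%, against 1.41% of all genes at 1 RPKM in both libraries), and the median difference was -0.84, or -0.79 after subtraction of GC bins. None had passed the filter in only 1 library.

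By role, the 11 chaperones had a median of -1.09 with 6 at least 2-fold lower, the 10 disulfide enzymes -0.74 with 4, and the 8 degradation genes -0.71 with 2. Hspa5 read 2175 RPKM in F1 and 768 in F10, with F0 between them at 1103, and the F1 over F10 ratio was 2.83 (2.78 to 2.89). Its position is chromosome 2, 34771970 to 34777547, GRCm38. Dnajb9, a co-chaperone of Hspa5, read 68.6 and 13.4 RPKM, a ratio of 5.1 (4.14 to 6.39). Ero1l, the oxidase that drives disulfide formation, read 268 and 62.8 RPKM, a ratio of 4.27 (3.96 to 4.6). These genes differed by amounts far outside counting error. Herpud1, a membrane component of ER-associated degradation, read 376 RPKM in F1 and 116 in F10. Creld2, a disulfide isomerase-like folding factor, read 239 and 87.7, and Manf, a secreted ER stress protein, 225 and 94.5. The lectin chaperone Canx stood near the other end of the list, at 322 and 264 RPKM. Of the 12 genes at least 2-fold lower, F0 lay nearer F1 in 6 and nearer F10 in 6, beyond neither library.

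The stress response regulators had a list median of -0.89 (close to 2-fold after GC subtraction). Of 22 compared, 20 read lower in F10, 10 of them at least 2-fold, and none read at least 2-fold higher. Over the 21 at 1 RPKM in both libraries, 9 were at least 2-fold lower (42.9%, against 1.41% of all such genes), 1 call having rested on a gene under 1 RPKM in F10. The 8 transcription factors all lay below F1. Atf3, a factor induced by many stresses, read 60.9, 5.34 and 12.6 RPKM in F1, F10 and F0, an F1 over F10 ratio of 11.4 (8.69 to 15.3). Ddit3, which encodes the stress factor CHOP, read 404, 100.2 and 126 RPKM in F1, F10 and F0. Atf4, the central factor of the integrated stress response, read 460 and 303, a ratio of 1.52 (1.43 to 1.61), and the ER stress factor Xbp1 read 93.1 and 51.1, so both differed by less than 2-fold. Among outputs and feedback genes, Ppp1r15a, the phosphatase subunit that restarts translation, read 95.9 and 14.5 RPKM, a ratio of 6.63 (5.67 to 7.79). Trib3, a pseudokinase that restrains the response, read 125 and 50.7. Gadd45a, a growth arrest gene also on the p53 target list, read 45.1 and 10.3. Nupr1, a stress-induced chromatin protein, read 104 and 35.2. Among the sensors, Ern1 read 9.68 and 3.37 and Atf6 30.5 and 13. Of the 10 genes at least 2-fold lower, F0 was nearer F10 in 7 and below F10 in 3. The kinases and sensors were placed otherwise, with a median against F0 of -0.41 in F10 and 0.01 in F1. The 2 members above F1 were the eIF2 kinases Eif2ak1, at 24.3 RPKM in F1 and 25 in F10, and Eif2ak4, at 7.28 and 8.22.

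Genes that supply amino acids and charge tRNAs lay lower as well, by less. Of 27 amino acid supply genes, 22 read lower in F10, 3 at least 2-fold, with a median of -0.34. All 27 were at 1 RPKM or more in both libraries, and the 3 are 11.1% of them, against 1.41% of all such genes. Slc7a11, the cystine side of the cystine and glutamate exchanger, read 72.8 RPKM in F1 and 22.4 in F10, a ratio of 3.25 (2.98 to 3.54). Slc1a4, a neutral amino acid transporter, read 35.9 and 17.2, and Pycr1, an enzyme of proline synthesis, 3.69 and 1.29 on 19 and 6 estimated fragments. Asns, asparagine synthetase, read 240 RPKM in F1 and 155 in F10, a difference of -0.63, while Phgdh, which opens the serine pathway, was level at 216 and 219. Of 19 cytosolic aminoacyl-tRNA synthetases, 17 read lower with a median of -0.32, and none was 2-fold apart in either direction. Rars, for arginine, had the largest difference of them, at 155 and 90.2 RPKM.

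The oxidative stress list behaved unevenly, with a median of -0.16, 4 of 38 members at least 2-fold lower and 1 higher. At 1 RPKM in both libraries 4 of 37 were lower (10.8%, against 1.41% of all such genes) and none higher. Hmox1 (chromosome 8, 75093621 to 75100589, GRCm38) read 1283 RPKM in F1, 139 in F10 and 344 in F0, a ratio of 9.21 (8.68 to 9.79) between F1 and F10. Srxn1, sulfiredoxin, read 152 and 49.9, and Sqstm1, the autophagy receptor p62, read 959 and 418. The iron storage chain Ftl1 went the other way, at 3622 and 5538 RPKM, but it has many near-identical copies in the genome and its value is uncertain. Nfe2l2, which encodes the regulator NRF2, read 62.7 and 43.3. Glutathione transferases had no common direction (median 0.07, 11 of 18 above F1), and 2 of them were among the largest higher genes. These 2 alone were at least 2-fold higher, 11.1% of the 18, against 1.32% of all genes at 1 RPKM in both libraries. Gsta4, which conjugates lipid peroxidation products, read 2.51 RPKM in F1, 42.3 in F10 and 10.5 in F0, the largest difference upward on this scale at 3.62, with an F10 over F1 ratio of 16.8 (9.96 to 33.4). It lies on chromosome 9, 78182774 to 78209349, GRCm38. Gstk1, a mitochondrial and peroxisomal transferase, read 1.55, 14.4 and 9.02 RPKM in F1, F10 and F0.

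**Figure D2:**
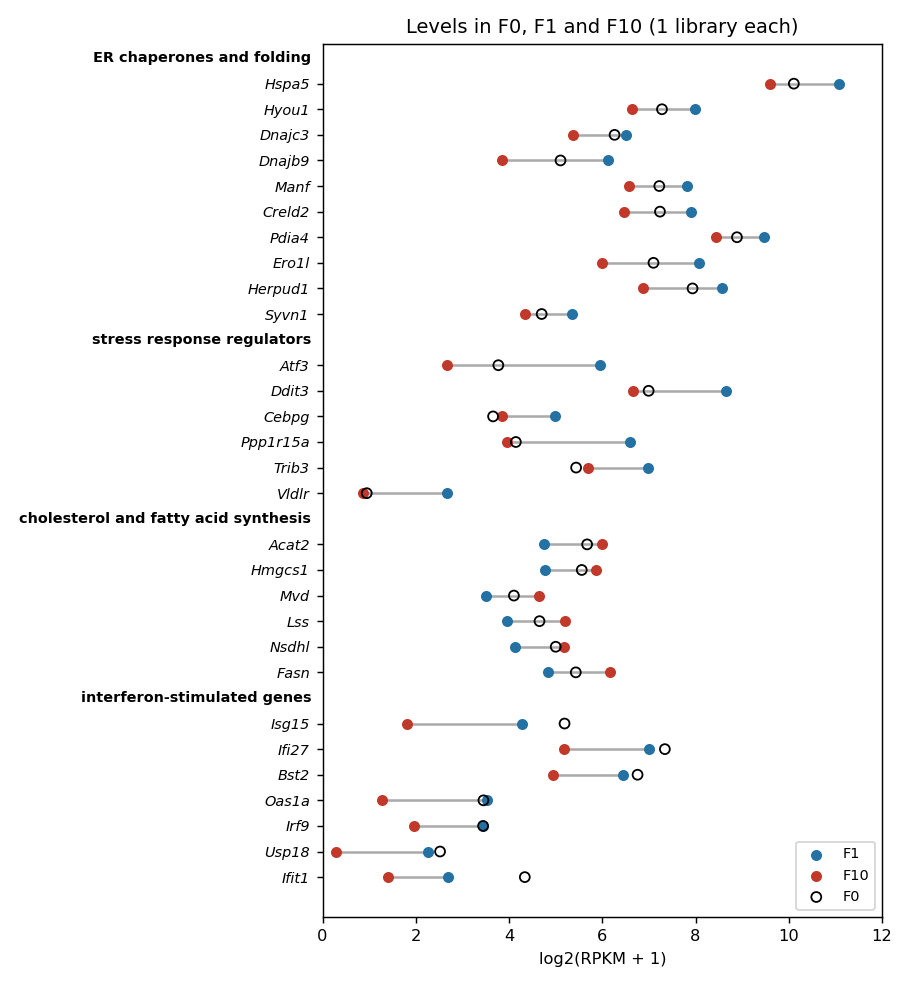
Levels of genes of 4 lists as log2(RPKM + 1) in F1 (blue), F10 (red) and F0 (open circles), 1 library each, with a grey line from F1 to F10. The ER and stress genes lie lower in F10 than in F1 with F0 between them or near F10, the cholesterol and fatty acid genes lie higher in F10, and the interferon-stimulated genes lie lower in F10 with F0 mostly at or beyond F1.

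Cholesterol is built from acetyl-CoA through mevalonate and squalene, and the genes of this route are driven together by the factor SREBP2, encoded by Srebf2. In F10 this list read higher than in F1 as a group. Of 20 members, 19 lay above F1, 5 of them at least 2-fold, none at least 2-fold below, with a median of 0.69 (0.71 after GC subtraction). All 20 were above 1 RPKM in both libraries, and the 5 are 25% of them, against 1.32% of all such genes. Acat2, the thiolase of the opening step, read 25.8 RPKM in F1 and 63.1 in F10, a ratio of 2.45 (2.14 to 2.81). Hmgcs1, which makes HMG-CoA, read 26.4 and 57.7, a ratio of 2.19 (1.97 to 2.43). Lss, which closes the sterol ring, read 14.4 and 35.7, while Mvd read 10.3 and 24.1 and Nsdhl 16.5 and 35.1. Ebp, a sterol isomerase, was the exception below F1, at 30.2 and 27.1 RPKM. In each of the 5 genes at least 2-fold higher, F0 lay between the sublines and nearer F10.

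The sterol sensing and transport genes did not show the same size of difference. Their median was 0.17, or 0.07 after GC subtraction, with none of 17 at least 2-fold apart. Srebf2 read 28.4 RPKM in F1 and 34.3 in F10, a ratio of 1.21 (1.05 to 1.38). Fatty acid synthesis genes lay higher in 13 of 15 with a median of 0.23. Fasn, fatty acid synthase, was the member at least 2-fold apart, at 27.7 and 71 RPKM, a ratio of 2.56 (2.4 to 2.73). The elongase Elovl6 followed just short of 2-fold, at 6.9 and 14.8.

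Interferons signal through JAK kinases and STAT factors to a set of antiviral genes that many tumour cells express at a low level without added interferon. In F10 this set read lower than in F1. Of 45 compared, 39 lay below F1 and 17 at least 2-fold, none at least 2-fold above, with a median of -0.87 (-0.74 after GC subtraction). The filter bears on this list, since 10 members reached 1 RPKM in 1 library only. Over the 35 that reached it in both, 30 lay below, 11 at least 2-fold (31.4%, against 1.41% of all such genes), and the median was -0.67. Leukocyte markers summed to 3.45 RPKM in F1 and 2.99 in F10 over the 3 measured of 8. The pan-leukocyte gene Ptprc read 0.0308 in F1 on 1 fragment and was listed at 0 in F10. Cd68 read 2.06 and 1.21, and Lyz2 1.365 and 1.78, and the counting intervals of all 3 held 1. The part of leukocytes in the interferon values was not tested.

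The 29 effectors had a median of -0.92, with 12 at least 2-fold lower. Isg15, a modifier related to ubiquitin that is attached to proteins during antiviral responses, read 18.5 RPKM in F1, 2.49 in F10 and 35.5 in F0, an F1 over F10 ratio of 7.4 (3.84 to 16) on 87 and 10 fragments. Oas1a, a sensor of double-stranded RNA, read 10.6 and 1.42, but its near-identical neighbours could share reads and it is uncertain. Bst2, tetherin, read 86.5 and 29.8, and Ifi27 read 127 and 35.4. The signalling genes were split. Irf9, the DNA-binding partner of STAT factors in the interferon-activated complex, read 9.88 and 2.88, a ratio of 3.43 (2.36 to 5.02), and Irf7, which amplifies the response, read 1.73 and 0.213 on 20 and 2 fragments. Stat2, its partner in that complex, read 4.74 and 2.62. The kinases Jak1 (19.1 and 24.3) and Tyk2 (5.59 and 7.55) read above F1. In 14 of the 17 genes at least 2-fold lower, F0 lay beyond F1, that is, higher still.

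Antigen presentation genes of MHC class I lay lower in 12 of 14, 2 of them at least 2-fold, with a median of -0.65. At 1 RPKM in both libraries 10 of 12 lay lower, 1 at least 2-fold (8.33%, against 1.41% of all such genes). B2m, the light chain, read 341 RPKM in F1, 187 in F10 and 444 in F0, an F1 over F10 ratio of 1.83 (1.68 to 1.98). The heavy chain genes H2-D1 (48.4 and 25) and H2-K1 (23.3 and 14.7), and H2-T22 (10.5 and 3.6), belong to a family whose reads may be split between copies. Peptide transporter Tap1 was near level, at 1.34 and 1.21. Of the immune ligands, 5 of 21 were at least 2-fold lower and none higher, while the median was -0.18, or 0.02 after GC subtraction. Cd274, Raet1e and Raet1a passed the filter through F1 alone, and over the 17 at 1 RPKM in both libraries 2 were at least 2-fold lower (11.8%, against 1.41% of all such genes) and the median was 0.16. Among these 5, Cd274, the checkpoint ligand PD-L1, read 3.09 and 0.829 RPKM, a ratio of 3.72 (2.14 to 6.87). Pvr, a ligand of the receptors DNAM-1 and TIGIT, read 29.3 and 11.3. Raet1e, a ligand of the natural killer receptor NKG2D, read 21.6 and 0.935, and Raet1a read 5.47 and under 0.001, both in a family of near-identical genes and therefore uncertain, the latter also a possible failed estimate. Raet1d of the same family lay the other way, at 6.38 and 12.2. The chemokine Ccl5 read 7.55 and 1.77 on 25 and 5 fragments.

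Promoters of the stress and interferon genes were searched for the motifs their regulators are known to bind, and 6 windows are printed because they belong to genes that carry these results. Each is the RefSeq promoter window of 300 bases (GRCm38.p6) on the gene's strand, 5′ to 3′, and capitals mark the motif found on either strand. The letters searched were GAAANNGAA for the interferon-stimulated response element (ISRE), TGATGNAA for the C/EBP-ATF response element, and CCAAT and CCACG separated by 9 bases for the ER stress response element. In the Isg15 window 3 matches overlap into 1 run, and in the Oas1a window 2 do. In Trib3, Atf3 and Creld2 the match is on the opposite strand. Isg15 lies at chr4:156200769-156201068 (minus strand), Oas1a at chr5:120907476-120907775 (minus), Trib3 at chr2:152344011-152344310 (minus), Atf3 at chr1:191183284-191183583 (minus), Hspa5 at chr2:34771840-34772139 (plus) and Creld2 at chr15:88819396-88819695 (plus).
Isg15: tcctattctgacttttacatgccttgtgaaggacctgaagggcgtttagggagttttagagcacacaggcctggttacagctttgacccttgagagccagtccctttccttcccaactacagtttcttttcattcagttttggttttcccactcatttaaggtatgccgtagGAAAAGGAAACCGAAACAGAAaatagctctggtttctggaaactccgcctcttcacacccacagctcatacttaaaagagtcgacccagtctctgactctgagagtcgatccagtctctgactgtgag
Oas1a: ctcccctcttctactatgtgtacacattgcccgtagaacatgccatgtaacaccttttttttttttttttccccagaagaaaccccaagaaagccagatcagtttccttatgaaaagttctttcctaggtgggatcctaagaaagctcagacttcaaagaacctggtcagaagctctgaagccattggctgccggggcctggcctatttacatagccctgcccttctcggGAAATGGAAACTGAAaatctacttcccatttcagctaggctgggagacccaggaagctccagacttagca
Trib3: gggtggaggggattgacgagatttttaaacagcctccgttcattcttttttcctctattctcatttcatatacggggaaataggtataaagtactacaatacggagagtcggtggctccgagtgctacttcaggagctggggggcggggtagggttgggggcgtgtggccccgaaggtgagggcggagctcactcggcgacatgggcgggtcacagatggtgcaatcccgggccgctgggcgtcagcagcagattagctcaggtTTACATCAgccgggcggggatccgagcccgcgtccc
Atf3: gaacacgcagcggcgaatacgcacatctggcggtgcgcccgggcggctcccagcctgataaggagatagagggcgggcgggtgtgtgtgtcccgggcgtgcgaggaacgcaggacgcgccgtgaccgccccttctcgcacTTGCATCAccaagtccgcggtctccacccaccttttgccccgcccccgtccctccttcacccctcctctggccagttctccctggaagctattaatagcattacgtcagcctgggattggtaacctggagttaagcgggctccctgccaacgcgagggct
Hspa5: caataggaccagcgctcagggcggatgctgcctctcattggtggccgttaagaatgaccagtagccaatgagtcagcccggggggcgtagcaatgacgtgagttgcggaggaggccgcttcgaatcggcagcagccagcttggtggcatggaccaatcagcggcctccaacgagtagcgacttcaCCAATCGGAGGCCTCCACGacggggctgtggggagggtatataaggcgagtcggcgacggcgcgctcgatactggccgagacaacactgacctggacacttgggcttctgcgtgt
Creld2: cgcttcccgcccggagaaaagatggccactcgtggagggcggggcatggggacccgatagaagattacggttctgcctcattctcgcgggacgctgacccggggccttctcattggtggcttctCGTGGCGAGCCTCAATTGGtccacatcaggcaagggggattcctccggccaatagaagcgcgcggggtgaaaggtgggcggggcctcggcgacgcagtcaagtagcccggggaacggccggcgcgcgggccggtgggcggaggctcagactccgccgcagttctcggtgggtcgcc

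Of 8514 compared genes with a promoter window, 171 (2.01%) read at least 2-fold higher in F10 and 159 (1.87%) lower. The ISRE letters stood in 8.56% of all 32851 windows and in windows of 692 compared genes, of which 33 (4.77%) were at least 2-fold lower and 13 (1.88%) higher. At 1 RPKM in both libraries 18 of 647 (2.78%) were lower, against 1.41% of 8080 genes with a window. Within the interferon list, 19 of 36 genes with a window held them, and their median was -0.97, against -0.30 for the 17 without. This split kept the filter of 1 RPKM in either library, which 10 of the 45 compared list members passed in 1 library only. It was not made at 1 RPKM in both libraries. The list was also chosen with earlier results known, so the split is a description only. Outside all gene lists, 20 of 607 genes with the letters were lower (3.29%), against 106 of 7715 (1.37%). Much of this rests on genes that passed the filter through F1 alone: at 1 RPKM in both libraries it was 8 of 570 (1.4%), against 70 of 7323 (0.956%). By names picked out after their values were seen, the 20 lower genes outside the lists include Igtp (1.86 RPKM in F1 and 0.0932 in F10), Irgm2 (2.4 and 0.697) and Trim30a (3.26 and 0.3), which are themselves known as interferon-responsive genes in mice and all of which passed through F1 alone. The C/EBP-ATF letters, in 3.97% of windows, gave 15 of 217 genes lower (6.91%) and 2 higher (0.922%), but outside the lists 5 of 179 (2.79%), and 3 of 163 (1.84%) at 1 RPKM in both libraries. The ER stress element, in 0.119% of windows, was held by 17 compared genes with a median of -0.55, of which 4 (23.5%) were at least 2-fold lower: Hspa5, Creld2, Dnajc3 and Syvn1. None was at least 2-fold higher, and outside the lists 8 genes held it, none of them at least 2-fold apart.

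The other motifs lay near the shares of all promoters. The sterol regulatory element, TCACNCCAC, stood in 1.24% of windows, and of 116 genes 2 read higher and 2 lower (1.72% each); on the cholesterol list 1 of 15 genes, Hmgcs1, held it. The antioxidant response element, TGACNNNGC, stood in 12.4% of windows, with 26 of 1445 genes higher and 30 lower. The E-box CACGTG stood in 7.15%, with 1.44% of 1039 genes in each direction. All letters were searched on both strands, and no motif contains another. A match describes letters in a window and is not a bound site.

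**Figure D3:**
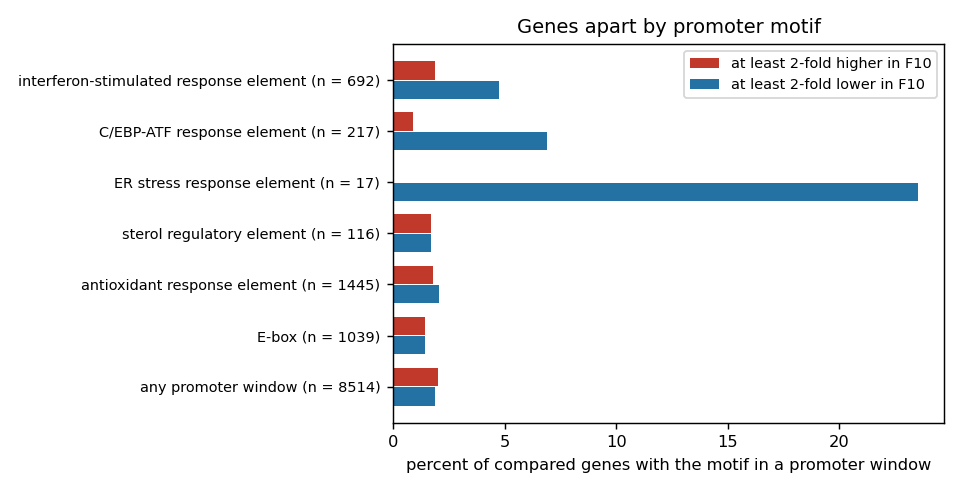
Percent of compared genes at least 2-fold higher (red) or lower (blue) in F10 than in F1, for genes with each motif in a promoter window and for all 8514 genes with a window (n beside each name). The blue bars stand out for the ISRE (4.77%), C/EBP-ATF (6.91%) and ER stress (23.5% of 17 genes) elements against 1.87% for any window.

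Skeletal muscle genes were low in both libraries and read higher in F10. Of 43 listed, 38 were measured and 18 passed the filter. All 18 lay above F1, 13 at least 2-fold, with a median of 1.33 (1.22 after GC subtraction), but 8 of them reached 1 RPKM in F10 alone, which fixes their direction. Of the 10 at 1 RPKM or more in both libraries, all 10 lay above F1 and 8 at least 2-fold (against 1.32% of all such genes), with the median again at 1.33. Over all 38 measured members, without the filter, the median was 0.38, below that of the cholesterol list. Their levels stayed small: the 18 genes summed to 35.9 RPKM in F1, 113 in F10 and 37.1 in F0. Tnnt3, fast troponin T, read 2.7, 13.2 and 3.64 RPKM in F1, F10 and F0, an F10 over F1 ratio of 4.88 (2.82 to 8.77). Myl1, a myosin light chain, read 1.18 and 9.62 on 6 and 41 fragments. Ckm, muscle creatine kinase, read 1.47 and 6.26. Jph2, which ties the plasma membrane to the calcium store, was listed at 0 in F1 and F0 and read 4.01 in F10 on 89 fragments, at least 34.8-fold above the floor of 3 fragments in F1. The lineage factor Myod1 was listed at 0 in F1 and read 0.102 in F10 on 1 fragment, and Myog and Myf5 were not analysed here. For 9 of the 13 genes at least 2-fold higher, F0 lay beyond F1, that is, lower still.

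Summed markers of several other cell types also read higher in F10, from low levels. The fibroblast markers summed to 4.86 RPKM in F1 and 13.4 in F10 over 9 measured of 10, with 1 and 4 of them at 1 RPKM or more. Endothelial markers summed to 0.348 and 1.14 over 5, erythroid ones to 0.588 and 3.17 over 4 of 5, and the epithelial ones to 0.0363 and 0.555 over 2 of 6, with Epcam at 0 in both. The endothelial and erythroid sums rest on few fragments: Pecam1 had 0 and 4, Vwf 3 and 9, Hba-a1 0 and 4, and Hbb-bs 1 and 2. Every endothelial or erythroid interval that could be estimated held 1, and Hbb-b1 had no fragment estimate. Smooth muscle markers summed to 0.348 and 0.5 over 4 of 5, and neural and glial ones to 67.8 and 61.2 over 5 of 7. In bulk RNA, more cells of a type and more RNA per cell cannot be told apart, and the part of other cells in the muscle and matrix values was not tested. Among the fibroblast markers, Pdgfrb read 0.148 and 3.34 on 5 and 96 fragments, and Dcn 0.445 and 2.62 on 5 and 24. Postn read 2.62 and 4.2 on 51 and 69 fragments. Col1a1 read 0.41 and 0.923 on 15 and 29, and Col1a2 0.811 and 1.39 on 16 and 23, with an interval (0.854 to 3.42) that holds 1. Pdgfra read 0.0978 and 0.115, and Lum 0.155 and 0.182, each on 2 fragments in both libraries. Col3a1 and Fap had at most 2 fragments in either library.

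**Figure D4:**
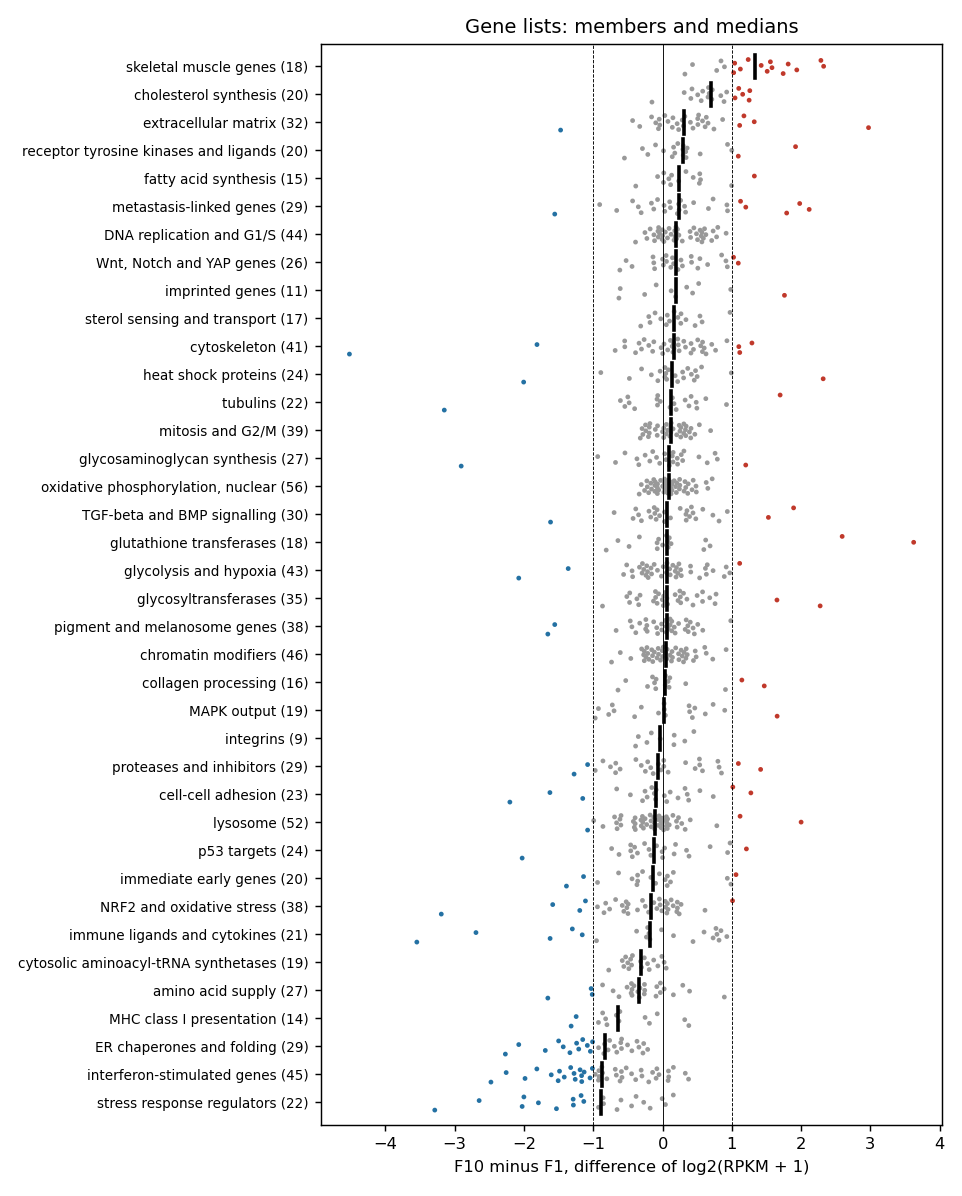
Difference F10 minus F1 in log2(RPKM + 1) for each compared member (point) of 38 gene lists, with the list median as a black bar and the number compared in brackets; red and blue points are at least 2-fold apart (dashed lines). With the filter used here the muscle list (median 1.33) and the cholesterol list (0.69) lie highest; the stress regulators (-0.89), interferon-stimulated genes (-0.87) and ER chaperones (-0.84) lie lowest, and their order among themselves changes with the setting.

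Matrix genes lay higher in F10 in 24 of 32, 4 at least 2-fold and 1 lower, with a median of 0.31, or 0.20 after GC subtraction. Col4a2, Dcn and Col1a2 passed the filter through F10 alone. Over the 29 at 1 RPKM in both libraries, 21 lay above F1 and 2 were at least 2-fold higher (6.90%, against 1.32% of all such genes) and 1 lower. Emilin1, an elastic fibre glycoprotein (chromosome 5, 30913402 to 30921277, GRCm38), read 1.57 RPKM in F1, 19.2 in F10 and 11.4 in F0, a ratio of 12.2 (8.68 to 17.4). All 7 compared collagens lay above F1, 2 of them having passed through 1 library only. Col4a2 of the basement membrane read 0.724 and 2.73, and Col4a1 read 1.45 and 3.48. Col16a1 read 1.05 and 3.62, but on 3 and 9 fragments, and its interval (0.88 to 20.2) holds 1. Dcn, decorin, read 0.445 and 2.62 and is also on the fibroblast list. Against them, the laminin chain Lamb1 read 11.2 and 3.39, a ratio of 3.3 (2.64 to 4.15). Among 16 collagen processing genes the median was 0.04, or -0.03 after GC subtraction, with Pcolce (18.2 and 41.5), an enhancer of procollagen cleavage, and Fkbp10 (2.61 and 8.98), a collagen chaperone, at least 2-fold higher. These 2 are 12.5% of the 16, all at 1 RPKM in both libraries, against 1.32% of all such genes. Proteases had no common direction, with 13 of 29 above F1 and 2 at least 2-fold apart each way. Of the 25 at 1 RPKM in both libraries, 1 was higher (4%, against 1.32% of all such genes) and 2 lower (8%, against 1.41%). Ctsl, cathepsin L, read 144 and 67.6, and Adamts1 read 82 and 33.3, while Prss23 (1.19 and 4.85, on 4 and 13 fragments) and Adam12 (0.815 and 2.87) read higher. None of 9 integrins was 2-fold apart.

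Genes that have been linked to metastasis had a median of 0.23 over 29, with 5 at least 2-fold higher and 1 lower. The list holds genes reported to promote it and genes reported to suppress it, and both kinds lay mostly above F1. Of 20 reported promoters 13 lay above F1 (median 0.25), and of 9 reported suppressors 7 (median 0.10). All the genes at least 2-fold apart were reported promoters. Over the 26 at 1 RPKM in both libraries 4 were higher (15.4%, against 1.32% of all such genes) and none lower, since Snai2 and Igf2bp2 passed through 1 library. The chromatin protein Hmga2 read 3.15 RPKM in F1, 13.4 in F10 and 9.91 in F0, a ratio of 4.24 (3.25 to 5.54). Its relative Hmga1 read 16.9, 76.7 and 54.8, and is uncertain because reads may be shared within its family. The calcium-binding S100a6 read 1.12 and 7.34 on 4 and 23 fragments, and S100a4 3.21 and 8.69 on 8 and 19. Igf2bp2, an RNA-binding protein, was the other, at 0.987 and 3.34. The lower one was Snai2, a factor of neural crest and mesenchymal programmes, at 4.15 and 0.75, a ratio of 5.53 (2.61 to 13.5). Met, the receptor of hepatocyte growth factor, read 99.6 and 192, a ratio of 1.92 (1.81 to 2.05) just short of 2-fold on this scale. Other receptor tyrosine kinases and ligands lay mostly higher too, with 16 of 20 above F1 and a median of 0.30, or 0.07 without the filter on low values. Pdgfrb (0.148 and 3.34) and Axl (0.831 and 2.91) were the members at least 2-fold higher, and both reached 1 RPKM in F10 alone.

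Pigment genes as a whole had no common direction, with a median of 0.06 over 38 and 22 above F1. By part, 9 of 10 melanosome proteins lay above F1 (median 0.13), with 1 of 3 enzymes, 3 of 9 regulators and 9 of 16 trafficking genes. Trpm1, a melanocyte channel, came closest to 2-fold upward at 44.6 and 89.2 RPKM, and the lineage factors Mitf (43.9 and 62.8) and Sox10 (59.5 and 89.5) read higher by less. The members at least 2-fold lower were Slc7a11 and Snai2, which are on other lists as well. DNA replication and G1/S genes lay above F1 in 32 of 44 with a median of 0.20, and mitotic genes in 27 of 39 with 0.12, with none of either list 2-fold apart. Uhrf1, a partner of maintenance DNA methylation, read 50.9 and 97, and Rrm2, a subunit of ribonucleotide reductase, 117 and 205. Nuclear oxidative phosphorylation genes were similarly shifted (39 of 56 above, median 0.09). Lysosomal genes leaned lower, with 34 of 52 below F1 and a median of -0.12, while the lysosomal channel Mcoln3 read 5.99 RPKM in F1 and 27 in F10. The lysosome regulator Tfeb read 1.68 and 4.81 on 6 and 14 fragments, too few for its counting interval to leave out a ratio of 1. Glycolysis genes lay above F1 in 18 of 24 and hypoxia response genes in 6 of 19. The other lists had medians between -0.14 and 0.19 and at most 3 members at least 2-fold apart in either direction. Some of these few are still large shares at 1 RPKM in both libraries. Cell-cell adhesion had 3 of 22 lower (13.6%, against 1.41% of all such genes) and 1 higher. Immediate early genes had 2 of 15 lower (13.3%) and none higher. TGF-beta and BMP genes had 2 of 28 higher (7.14%, against 1.32%) and 1 lower, and imprinted genes 1 of 11 higher (9.09%) and none lower. By symbol family, semaphorins, plexins and neuropilins lay above F1 in 14 of 16 (median 0.39), with Plxnd1 at 16 and 41.3 RPKM, while Zfp zinc finger genes lay below it in 208 of 288 (median -0.21, or -0.16 after GC subtraction). Cytosolic ribosomal proteins were balanced, with 39 of 79 above.

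Cell shape genes held some of the largest differences. Of 41 cytoskeleton genes 28 lay above F1, with a median of 0.16 (0.10 after GC subtraction), 3 at least 2-fold higher and 2 lower. Over the 39 at 1 RPKM in both libraries, 2 were higher (5.13%, against 1.32% of all such genes) and 1 lower (2.56%, against 1.41%). Tagln2 passed the filter through F1 alone and Tpm2 through F10 alone. Tagln2, an actin-binding protein (chromosome 1, 172500047 to 172507380, GRCm38), had the largest difference of all compared genes on this scale, at 31.3 RPKM in F1, 0.409 in F10 and 9.45 in F0. It rests on 140 and 2 fragments, a ratio of 76.6 (16.2 to 497). Fscn1, the bundling protein of filopodia, read 6.73 and 1.2. Tubb2b, a beta tubulin of neural cells, read 20.2 and 1.38, a ratio of 14.6 (8.81 to 25.9), while its neighbour Tubb2a read 8.54 and 6.21. Map1a, a microtubule-associated protein, read 0.0277 and 2.33 on 2 and 136 fragments. Junction protein F11r read 11.3 and 1.67, and the adhesion molecule L1cam 19.5 and 5.63. Hs3st1, which sulfates heparan sulfate, read 12.4 and 0.783, a ratio of 15.8 (6.62 to 50.4). Galnt6, which starts O-glycans, was listed at 0 in F1 and read 3.84 in F10 on 77 fragments, at least 30.3-fold above the floor. The small heat shock proteins Hspb1 (8.88 and 1.46) and Hspb8 (0.973 and 8.84) moved in opposite directions. Of these genes, Hs3st1 passed the filter through F1 alone, and Map1a, Galnt6 and Hspb8 through F10 alone.

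By chromosome, chromosome 13 stood out. Its 376 compared genes had a median of -0.34, with 16.8% above F1 against 48.9% of all genes with a position. The next lowest was chromosome 14 at -0.19 (27.1% above), then X at -0.14 and 18 at -0.13, and the highest were 15 at 0.13 and 4 at 0.12. After subtraction of GC bin medians chromosome 13 lay at -0.26 and chromosome 14 at -0.14, but X at -0.05 and 18 at -0.03. The highest were then 4 and 12, each at 0.13, and 10 at 0.12, with 15 at 0.09. The shift ran along the whole chromosome: in 3 consecutive parts by gene order the medians were -0.24, -0.39 and -0.38. Against F0, whose comparisons share these libraries, the chromosome 13 median was -0.25 in F10 and 0.10 in F1. On chromosome 13, 16 genes (4.26%, against 1.94% of all compared genes) read at least 2-fold lower and 2 (0.532%, against 2.09%) higher. One of the 2 higher was Hmgcs1 of the cholesterol list, and Tubb2b, Ctsl and Ippk were among the lower, the latter, an inositol phosphate kinase, at 31 and 4.58 RPKM. Zfp genes on chromosome 13 (29 genes) had a median of -0.51, those elsewhere (259 genes) -0.19, and the chromosome without them -0.32.

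Runs of 25 neighbouring genes had medians from -0.63 to 0.70. GC bin medians were not subtracted here, and the part of GC content in these runs was not tested. The 3 lowest that did not overlap were all on chromosome 13 (GRCm38). The lowest, 31819579 to 38960875, had none of 25 genes above F1 and holds Tubb2b and Serpinb9b (3.08 and 0.684 RPKM). The next, 64275280 to 67729173, with a median of -0.56, also had none above and holds Ctsl and a cluster of Zfp genes that share sequence. The third, 99319647 to 104203372, at -0.51, holds Smn1, the survival motor neuron gene, at 28.5 and 14.9. The highest run, on chromosome 10 from 80392539 to 81133975, had 25 of 25 genes above F1. Its 3 members at least 2-fold higher were the kinase gene Mknk2 (19.3 and 54.9), Oaz1 (37.4 and 80.02), the antizyme that controls polyamine synthesis, and Abhd17a (5.77 and 12.8). The other high runs lay on chromosome 4 from 139622866 to 143299564 (median 0.68) and chromosome 12 from 111758849 to 113189523 (0.62).

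**Figure D5:**
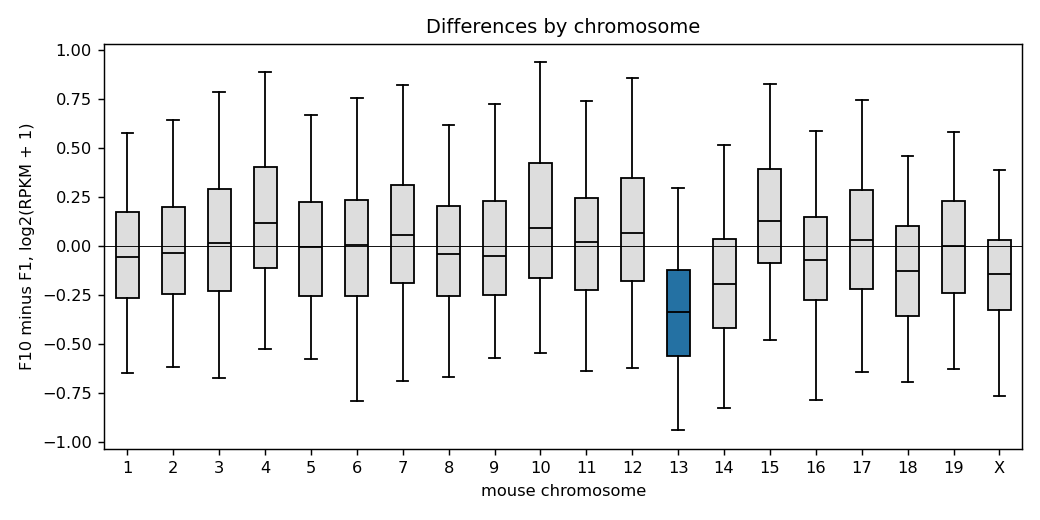
Difference F10 minus F1 in log2(RPKM + 1) of compared genes by mouse chromosome, 1 library each; boxes span the middle 50% of genes with the median as a line, and whiskers reach the 5th and 95th percentiles of genes. Chromosome 13 (blue, median -0.34) lies lowest, also after subtraction of GC bins (-0.26), which the plot does not apply; chromosome 15 (0.13) lies highest here but not after it (0.09).

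The position of F0 was counted for the genes at least 2-fold apart. Of the 221 genes higher in F10, F0 lay nearer F1 in 89, nearer F10 in 82, beyond F1 in 38 and beyond F10 in 12, and of the 205 lower genes in 68, 81, 41 and 15. These positions reuse the F1 and F10 values that chose the genes and are a description only. List medians against F0 were 0.84 in F1 and -0.12 in F10 for stress regulators, 0.47 and -0.46 for ER chaperones, -0.61 and 0.11 for cholesterol synthesis, -0.31 and -1.14 for interferon-stimulated genes and 0.09 and 1.61 for muscle genes. For the ER chaperones the sublines thus lay on opposite sides of F0 by about the same amount.

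The thresholds divide close values. Just inside the 1 RPKM filter lay Tsacc (1 and 0.392 RPKM in F1 and F10), Ybey (0.922 and 1) and Ssc4d (1 and 0.692), and just outside it Sh3bgr (0.971 and 0.999), Rsad1 (0.773 and 0.999) and Myh14 (0.399 and 0.999). At 2-fold, Pak3 (1.46 and 0.229), Bcl2l11 (0.415 and 1.83) and Irgm2 (2.4 and 0.697) lay just inside, and Ccdc136 (3.6 and 8.18), Lrp1 (1.25 and 3.49) and Pdgfa (2.84 and 6.67) just outside. Of the 221 higher genes 57 were on a gene list, and of the 205 lower genes 69. Of the 10164 genes under 2-fold, 894 were on a list. The lists were chosen with earlier results of these data known, so the difference in shares is no result about the genes.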

How the data were processed

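RNA was sequenced from B16 F0, F1 and F10 cells, 1 library each, from polyadenylated RNA with a stranded kit, per the labels' protocols. Per the submitters' processing notes, the tools were TopHat, Bowtie2, Cufflinks and bcl2fastq and the genome build was mm10, without versions; the gene annotation is not given in the labels. The authors deposited RPKM per gene, per the file headers. The authors' z score columns, deposited beside them, do not cover F10 against F1 and were not used. A value of 0, or under 0.001, can be a failed estimate.

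Of 14313 rows, 20 spreadsheet dates (0.174% of RPKM) were left out. Depth was estimated from RPKM steps of 1324 single-transcript genes of at least 800 bases, where 83.3% (F1) and 80.7% (F10) of values near 1 fragment lay within 5% of it. Lengths, GC content and positions came from GENCODE M21 on GRCm38 (99% of genes, 523 through older symbols), and promoters from RefSeq GRCm38.p6. Fragments follow from RPKM and length, and are estimates. Intervals are 95% Clopper-Pearson. The floor of 3 fragments is 0.481 RPKM in F1 and 0.566 in F10 at 1 kb. F0 was used for position only.

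No test was run, since each subline has 1 library. The members, the 38 gene lists, 24 symbol families and motifs were chosen with earlier results of these data known. Named genes are the 30 largest differences each way, the 20 largest of at least 50 RPKM, list and family members at least 2-fold apart with the 4 most different per list, the most abundant genes, genes at 0, cell type markers, and genes at the thresholds or in extreme neighbourhoods; others were named for their role, with values known. Some genes are not reported here. The calls and intervals were tested on simulated data. Alternatives were pseudocounts, filters, scalings, GC bins and thresholds. Tools were Python 3.11.15, numpy 2.4.6, pandas 2.3.3, scipy 1.17.1 and matplotlib 3.10.9.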

Additional observations from a re-analysis of the deposited data

How the results depend on the processing

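The count of genes at least 2-fold higher in F10 was 221, and it became 465 with a pseudocount of 0.1, 340 with 0.5, 118 with a filter of 5 RPKM in either library, 132 with 1 RPKM in both, 410 on the TPM scale, 881 at a threshold of 1.5-fold and 17 at 4-fold. The count lower was 205, and it became 338 with a pseudocount of 0.1, 135 with a filter of 5 RPKM, 764 at 1.5-fold and 23 at 4-fold. The balance of directions thus moved: it was 410 higher to 265 lower on the TPM scale, where values are larger against the same pseudocount, 118 to 135 at 5 RPKM, and 175 to 192 after subtraction of 20 GC bins. With a counting interval that leaves out a ratio of 1 it was 209 to 194. Of 380 alternative list medians, 376 stayed within the range that the spread between list members gives the median. The exceptions were the muscle list (1.97 with a pseudocount of 0.1 and 0.38 without the filter, against 1.33), immediate early genes (-0.44 at 5 RPKM, against -0.13) and receptor tyrosine kinases (0.072 without the filter, against 0.30). A total of 12 alternative medians, in 8 lists with reported medians from -0.18 to 0.12, took the other sign. All of them still counted as inside the range given by the spread between members. Immune ligands, reported at -0.18, lay at 0.16 with 5 RPKM in either library and at 0.16 with 1 RPKM in both. Some alternatives left a list's genes and values unchanged. The share of medians that stayed therefore says little about how stable they are. Of 459 alternative values of the 92 genes with the largest differences, 430 stayed within their counting interval or between it and the reported value, and none changed sign. These genes were chosen for large differences, so a change of sign was hardly possible and its absence says little. Why the other values moved was not tested. No paired analysis was possible because each subline has 1 library. Leaving out a replicate was not possible for the same reason. Depth limits genes near 1 RPKM, where a transcript of 1 kb holds about 5 to 6 fragments.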
